A study of Danio rerio with 8 samples.

Results

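The genes described here are grouped as pluripotency factors of zygotic genome activation, the onset of transcription from the zebrafish embryo's own genome. The group holds pou5f3, nanog, foxh1 and the SoxB1 genes sox3, sox2, sox19a and sox19b. They were chosen by name, as the rows of the deposited table whose gene symbol is one of these, and all 7 were found among its 32520 genes, each in 1 row. The values come from RNA-seq of whole zebrafish embryos of the AB strain, yolk included. The treated group was kept in KT09, an ethanolic extract of Mahonia bealei stems, at 100 µg/ml, and the control group in E3 embryo medium with 0.5% DMSO, the solvent of the extract stocks. The labels do not give a DMSO percentage for the treated pools. Each group had 4 pools of 75 embryos, exposed from 2 hpf in wells of 25 embryos and collected at 8 hpf. That hour is the one in the Results of the paper, whose Discussion names a later hour for the same RNA. The labels call the tissue whole larvae, but at 8 hpf the embryo is a gastrula. All 7 of 7 genes checked for gastrula blastoderm were detected, between 813 and 56593 in treated and between 587 and 54489 in control embryos. They include pou5f3, a factor described here, and krt4, which gave the highest values and also marks the enveloping layer. Their detection alone therefore does not show the stage.

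A level in what follows is the authors' mean, over the 4 pools of a group, of read counts divided by a size factor for sequencing depth. Since only these averages were used, neither the spread between pools nor a test of a difference can be given. The 95% intervals beside the ratios are exact binomial (Clopper-Pearson) intervals on approximate read sums, and they cover counting error only. Those beside differences of log2 ratios are normal approximations on the same read sums, and they too cover counting error only. Differences between pools, which such intervals leave out, can be wider by an amount that these values do not show. The steps of single reads in the group means gave relative library depths of 0.980 to 1.16 in the treated and 0.820 to 1.14 in the control group. In the labels, replicate 4 of each group carries a library name in the style of the opposite group, whereas its title and treatment field give the group used here, and a group mean cannot be recomputed without that pool.

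In zebrafish, Pou5f3, Nanog and Sox19b proteins are supplied by the mother's RNA and bind the genome before it is transcribed, where they open chromatin at the earliest zygotic genes. Sox19b is the SoxB1 protein that the egg stores, while sox19a, sox3 and sox2 are transcribed by the embryo and take over during blastula and gastrula stages. Foxh1 is a maternal forkhead protein that works with Smad2 to read Nodal signals, which induce mesoderm and endoderm. Embryos that lack maternal and zygotic Pou5f3 are slow in epiboly, the spreading of the blastoderm over the yolk, and embryos that lack Nanog form a defective yolk syncytial layer. SoxB1 proteins later hold cells of the ectoderm in a neural progenitor state.

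Of the 7 genes, 6 had a higher and 1 a lower mean in treated than in control embryos. Past 1.5-fold, 4 were higher (pou5f3, nanog, foxh1 and sox3) and 0 were lower, with sox19a, sox2 and sox19b in between. Among all 15888 genes with an average of both group means of 10 or more, 13.8% were higher and 15.1% lower by this fold. Among the 9714 genes with an average of 100 or more, a level that all 7 factors reach, the shares were 9.54% higher and 10.1% lower. The median log2 ratio of the group means, treated over control with a pseudocount of 1, was 0.81 for the 7 genes and 0.01 for all 15888.

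The POU factor gene pou5f3 (ENSDARG00000044774), the zebrafish relative of mammalian Oct4, had a mean of 23138 in treated and 10649 in control embryos. The ratio of the group means was 2.17 (95% counting interval 2.15 to 2.20), or 1.12 on the log2 scale. Of the 15888 genes, 747 (4.70%) had a higher ratio, and of those with an average of 100 or more 2.06% had one. The treated mean exceeded the control mean by 12489.

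The homeobox gene nanog (ENSDARG00000075113), whose product acts with Pou5f3 at the onset of zygotic transcription and is needed for the yolk syncytial layer, was at 766 in treated and 385 in control embryos. Its ratio was 1.99 (95% counting interval 1.87 to 2.12) and its log2 ratio 0.99. The interval is the widest of the 4 genes past 1.5-fold, since this gene gave the fewest reads of the 7, about 3065 in the treated and 1541 in the control pools together.

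For foxh1 (ENSDARG00000055630), the Nodal effector, the means were 5106 in treated and 2630 in control embryos. The ratio was 1.94 (95% counting interval 1.90 to 1.99) and the log2 ratio 0.96, which 6.33% of the 15888 genes exceeded. The intervals of foxh1 and nanog overlap, and the difference of their log2 ratios was -0.03 (95% counting interval -0.13 to 0.06). The log2 ratio of pou5f3 lay 0.13 above that of nanog (95% counting interval 0.04 to 0.22), so pou5f3 stood highest in the order of ratios as far as counting error goes.

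**Figure D1:**
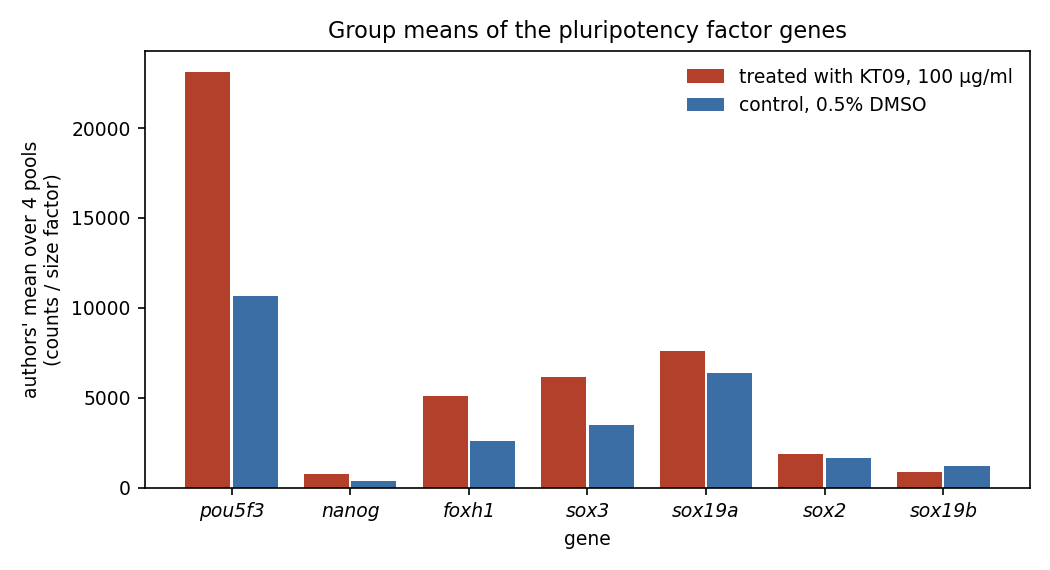
Authors' mean over 4 pools (counts divided by size factors, linear axis from 0) of the 7 genes in embryos treated with KT09 (left bar of each gene) and in control embryos (right bar), in the order of their ratios. Bars are group means and carry no error bars, since no values per pool were used. Only sox19b, at 886 in treated and 1241 in control embryos, has the lower bar on the treated side.

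The 4 SoxB1 genes among the 7 factors differed in their ratios. The embryo's own sox3 (ENSDARG00000053569), expressed in the blastoderm and then in the neural ectoderm, had a mean of 6137 in treated and 3496 in control embryos. Its ratio was 1.76 (95% counting interval 1.72 to 1.79) and its log2 ratio 0.81. The means of sox19a (ENSDARG00000010770), a paralog of sox19b that is active from the start of zygotic transcription, were 7587 in treated and 6371 in control embryos, a ratio of 1.19 (95% counting interval 1.17 to 1.21). The progenitor gene sox2 (ENSDARG00000070913) was at 1894 in treated and 1644 in control embryos, a ratio of 1.15 (95% counting interval 1.11 to 1.19). The intervals of sox19a and sox2 overlap, and 30.3% and 33.7% of the 15888 genes had a higher ratio than these genes, which places both within the bulk of the table.

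The maternally supplied sox19b (ENSDARG00000040266) was the exception in direction. Its mean was 886 in treated and 1241 in control embryos, a ratio of 0.714 (95% counting interval 0.684 to 0.746) and a log2 ratio of -0.49. This value lies short of 1.5-fold lower, and 18.8% of the 15888 genes had a lower ratio. The ratio of the means of sox19a over sox19b was 8.56 in treated and 5.13 in control embryos, a log2 difference of 0.74 (95% counting interval 0.67 to 0.80) in which gene length cancels. In the same way sox3 over sox2 was 3.24 in treated and 2.13 in control embryos, a log2 difference of 0.61 (95% counting interval 0.55 to 0.66).

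Summed over these 4 SoxB1 genes, the means came to 16503 in treated and 12751 in control embryos, a ratio of 1.29. Within that sum sox19b took 5.37% in treated and 9.73% in control embryos. These are shares of read counts, not of transcripts, since gene length does not cancel in the sum. The 7 genes are not ordered by level here, since that needs transcript lengths, which were not used here.

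**Figure D2:**
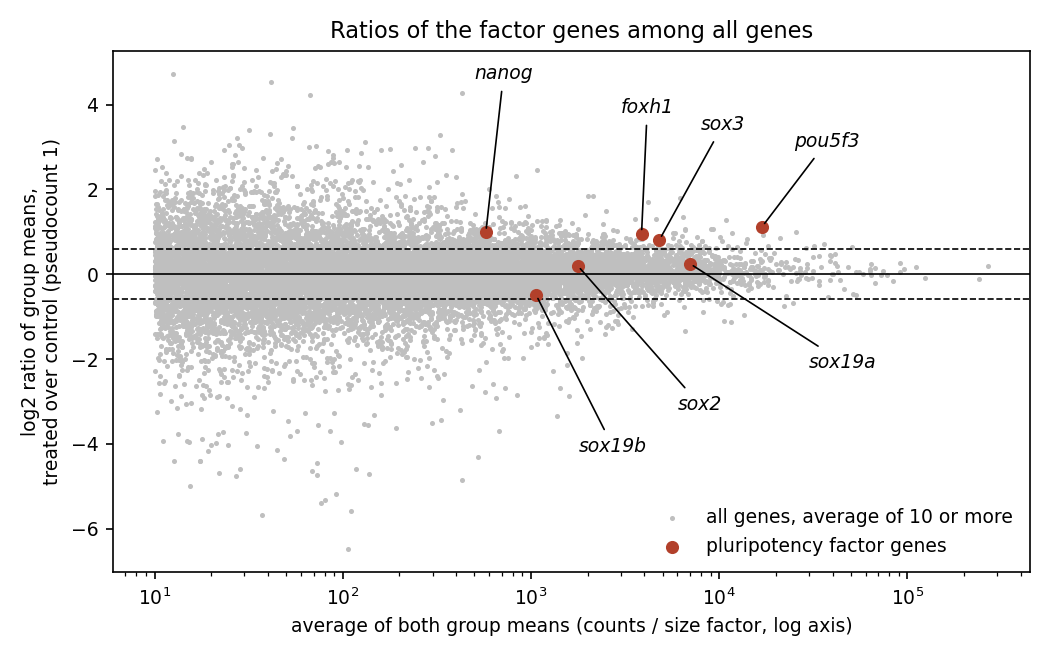
Log2 ratio of the group means, treated over control with a pseudocount of 1, against the average of both group means (log axis), for the 15888 genes with an average of 10 or more (grey) and the 7 factor genes (red). Dashed lines mark 1.5-fold. The genes pou5f3, nanog, foxh1 and sox3 lie above the upper line, while sox19a, sox2 and sox19b lie between the lines.

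Most other SoxB genes were scarce, while the other POU genes ranged widely in level. Of 5 further SoxB genes, which act in the later nervous system, only sox14 reached an average of 10, at 18.6 in treated and 36.5 in control embryos. The other 4 had an average under 10. The means of sox1a were 0.954 in treated and 14.8 in control embryos, and those of sox1b 1.71 in treated and 4.38 in control embryos. The paralogs sox21a and sox21b, whose products repress SoxB1 targets, were at 0.484 and 0.989 in treated and at 5.01 and 4.92 in control embryos. All 5 had the lower mean in treated embryos, against 1 of the 4 SoxB1 genes among the factors. Of the 5, sox1a and sox1b are SoxB1 genes as well, and 4 averaged under 10, so few reads lie behind this contrast.

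Of 14 other POU genes, 7 reached an average of 10. Of these, 3 were higher and 1 lower past 1.5-fold, beside 13.8% higher and 15.1% lower of all genes. The neural POU gene pou3f1 was at 146.5 in treated and 75.6 in control embryos, a ratio of 1.94. The octamer-binding factor gene pou2f2a, taken from the row with the larger overall mean, was at 294 in treated and 156 in control embryos. The gene with the highest means of the list, pou2f1b, was named after its values were seen. It was at 2011 in treated and 1304 in control embryos, a ratio of 1.54. At the low end pou3f2b, a brain POU gene, was at 2.68 in treated and 20.1 in control embryos, and pou3f2a at 12.5 in treated and 18.9 in control embryos. Without the pseudocount the ratio of pou3f2a was 0.664, which is past 1.5-fold, so that 2 genes of the list were lower. With the group means scaled to equal totals, 2 were higher and 2 lower. Across the 7 genes the log2 ratio had a median of 0.25.

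The Nodal pathway that Foxh1 serves was described by a list of ligands, receptors, Smads and cofactors. Of 21 genes listed, 20 were found and 18 reached an average of 10. Of these 18, 7 were higher and 1 lower past 1.5-fold, beside 13.8% higher and 15.1% lower of all genes. Their median log2 ratio was 0.46. The homeobox genes sebox and mixl1, partners in the response to Nodal, had the highest ratios. The means of sebox were 122 in treated and 20.6 in control embryos (log2 ratio 2.52), and those of mixl1 591 in treated and 116 in control embryos (log2 ratio 2.34). Genes of the Smad proteins that carry the signal to Foxh1 had ratios nearer to 1 or were scarce. The means of smad2, named for this role after its values were seen, were 769 in treated and 686 in control embryos, a ratio of 1.12. The related smad3b was scarce, at 12.2 in treated and 29.4 in control embryos, and the feedback inhibitor gene lft1 was at 362 in treated and 385 in control embryos. Their paralogs, named after their values were seen, had the higher mean in treated embryos. The means of smad3a were 99.5 in treated and 82.3 in control embryos, and those of lft2 517 in treated and 403 in control embryos.

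Among the ligands and receptors, also named after their values were seen, gdf3, which forms the active Nodal dimer, was at 660 in treated and 134 in control embryos. The Nodal ligand gene ndr2 was at 287 in treated and 183 in control embryos, and tdgf1, the coreceptor known as one-eyed pinhead, at 1924 in treated and 1192 in control embryos. The gene gdf3 had a log2 ratio of 2.29, while ndr2 and tdgf1 were nearer to 1.5-fold, at 0.65 and 0.69. Of the acvr receptor genes in the list, only acvr1ba was past 1.5-fold, at a ratio of 1.87. The others fell short of it, with ratios of 1.41 for acvr2aa, 1.40 for acvr2bb, 1.36 for acvr1bb, 1.21 for acvr2ab and 1.09 for acvr2ba.

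All 15 genes listed as known to respond to Nodal and Foxh1 reached an average of 10. Past 1.5-fold, 6 were higher and 0 lower, beside 13.8% higher and 15.1% lower of all genes. Their median log2 ratio was 0.52. The organizer gene lhx1a was at 520.0 in treated and 179 in control embryos (ratio 2.90), and the forkhead gene foxa at 1305 in treated and 615 in control embryos (ratio 2.12). The endoderm gene gata5 and the axial gene foxa2 were at the other end, with ratios of 0.798 and 0.812. For gata5 the means were 1351 in treated and 1693 in control embryos.

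**Figure D3:**
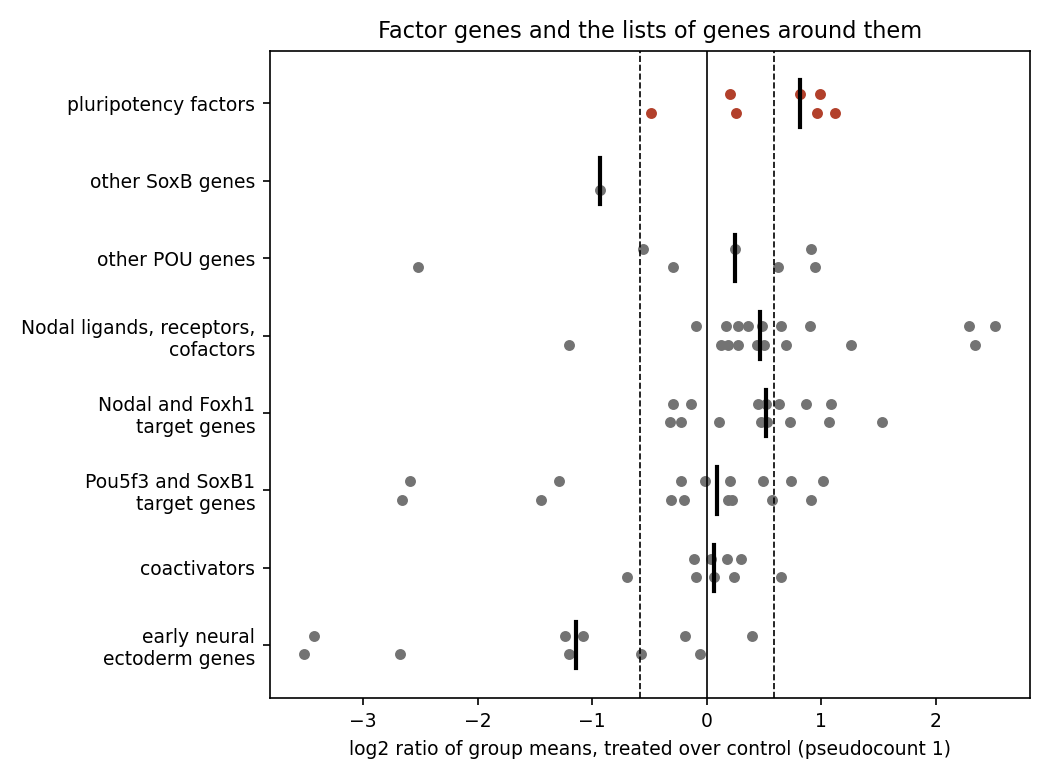
Log2 ratio of the group means, treated over control, of each gene with an average of 10 or more, in the 7 pluripotency factor genes (red, top row) and 7 lists of genes around them (grey). Each point is 1 gene, the thick bar is the median of its row, and dashed lines mark 1.5-fold. The factor genes have a median of 0.81, and the early neural ectoderm genes, in the bottom row, one of -1.14.

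Genes that are given as targets of Pou5f3 and SoxB1 proteins had ratios on both sides of 1. Of 16 such genes, all with an average of 10 or more, 3 were higher and 4 lower past 1.5-fold. Of all genes, 13.8% were higher and 15.1% lower. The median log2 ratio of the 16 genes was 0.09. The highest were foxd3, a repressor of blastula and neural crest cells, at 1256 in treated and 620.3 in control embryos (ratio 2.02), and bmp7a, a ventralizing ligand, at 3241 in treated and 1730 in control embryos (ratio 1.87). The lowest were the proneural gene neurog1, at 9.01 in treated and 62.2 in control embryos, and the Krüppel-like gene klf2a, at 178 in treated and 1078 in control embryos. The ventral repressors that Pou5f3 activates, named after their values were seen, lay at ratios of 1.66 for vent, 1.40 for ved and 1.15 for vox.

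Of 9 genes of coactivators and chromatin regulators of early transcription, 7 stayed within 1.5-fold. Past it, 1 was higher and 1 lower, beside 13.8% higher and 15.1% lower of all genes. The median log2 ratio of the 9 genes was 0.07. The histone methyltransferase gene kmt2d was at 8830 in treated and 5628 in control embryos (ratio 1.57), and the acetyltransferase gene crebbpb at 7016 in treated and 5714 in control embryos. With the group means scaled to equal totals, 0 genes of this list were higher and 1 lower past 1.5-fold. The demethylase gene kdm6bb was at 69.8 in treated and 114 in control embryos, and the acetyltransferase gene ep300b at 4591 in treated and 4948 in control embryos.

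The early neural ectoderm, where the SoxB1 genes act after the blastula, was described by 12 genes, of which 10 reached an average of 10. Past 1.5-fold, 0 of them were higher and 6 lower, beside 13.8% higher and 15.1% lower of all genes. Their median log2 ratio was -1.14, beside a median of 0.81 for the factor genes. Both sets were chosen with earlier results of these data known, so the gap between these medians is a description only. The eye and brain gene pax6b was at 47.4 in treated and 551 in control embryos (log2 ratio -3.51), and the dorsal neural gene zic1 at 55.8 in treated and 610 in control embryos (log2 ratio -3.43). Only zic2b had the higher mean in treated embryos, at 13682 in treated and 10403 in control embryos, and the proneural gene ascl1b was at 15.4 in treated and 16.1 in control embryos.

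Whole embryos hold several cell populations, and more cells of a type cannot be told apart here from more RNA per cell. Maternal and zygotic transcripts of a gene are counted together in these levels. The paper points out that maternal RNA was included, so that changes may stem from RNA maturation or degradation as well as from transcription. Embryos were collected by time after fertilization, so a difference in developmental stage between the groups cannot be told apart from a difference at 1 stage either. A lag of the treated embryos is reported by the paper, which describes severely delayed epiboly under the extract at the same dose. That treatment was chosen for sequencing because the dumb-bell shape of the embryo was seen most consistently with it. The part of such a lag in the ratios given here was not tested. Of 6 marker genes of the germ plasm and primordial germ cells, 3 were higher past 1.5-fold and 0 lower, beside 13.8% higher and 15.1% lower of all genes. The genes tdrd7a, dazl and nanos3 fell short of it. The summed means of the 6 genes were 3438 in treated and 1637 in control embryos. The RNA helicase gene ddx4 (vasa), which made up most of both sums, was at 2309 in treated and 1004 in control embryos. Of 4 marker genes of the yolk syncytial layer, where Nanog acts, 3 reached an average of 10 and all lay within 1.5-fold, with ratios of 1.39 for slc26a1, 1.36 for hnf4a and 1.15 for mxtx1. The layer's regulator mxtx2 was scarce, at 10.4 in treated and 5.68 in control embryos, and the 4 genes summed to 5548 in treated and 4144 in control embryos. All 6 marker genes of the enveloping layer lay within 1.5-fold, and their sums were 213517 in treated and 205045 in control embryos. No marker was at 0 in either group, and the part of these populations in the levels of the factor genes was not tested.

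**Figure D4:**
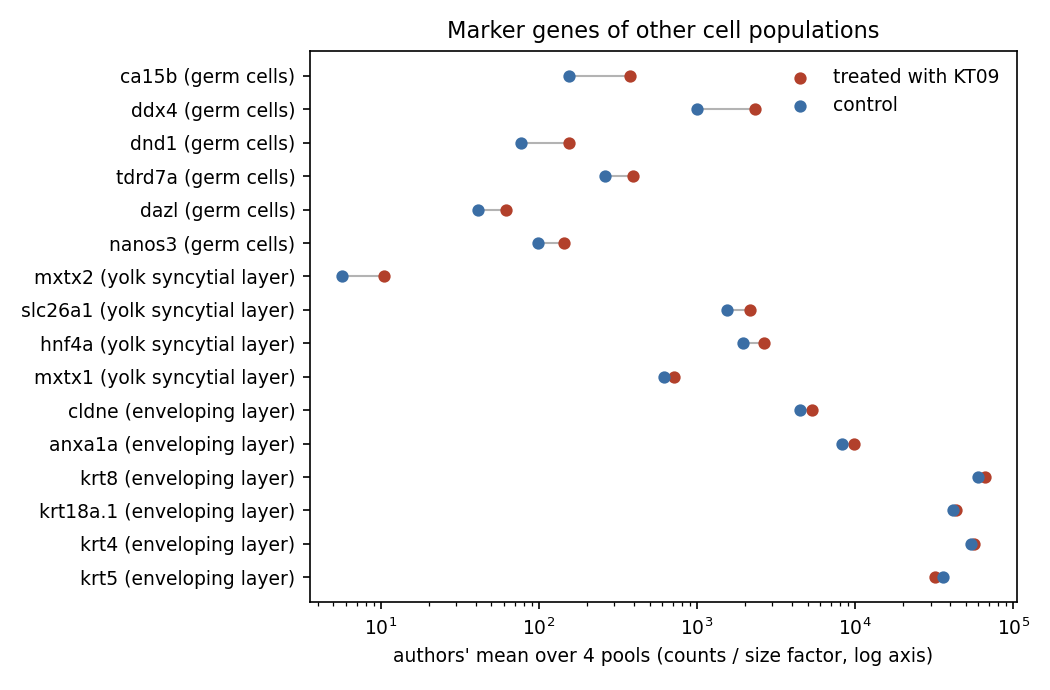
Authors' mean over 4 pools (counts divided by size factors, log axis) of marker genes of germ cells, the yolk syncytial layer and the enveloping layer in embryos treated with KT09 (red) and in control embryos (blue), 1 gene per row. The germ cell genes lie to the right in treated embryos (sum 3438 in treated, 1637 in control, most of it from ddx4), while the enveloping layer genes nearly coincide (sum 213517 in treated, 205045 in control).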

How the data were processed

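Reads of stranded, single-end mRNA libraries were counted per gene by the authors with an nf-core rnaseq pipeline on GRCz11, and the authors then used DESeq2. The deposited signal values are the authors' means, over treated, control or all pools, of counts that size factors had corrected for depth. The 5 columns of the authors' own comparison (fold change, its error, test statistic, p and adjusted p) were not used, and no values per pool were used, so no test was run.

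From the group means, log2 ratios of treated over control were computed with a pseudocount of 1, and genes past 1.5-fold were counted among those with an average of both means of 10 or more. Counting intervals took each mean times 4 as the read sum. The group means sum to 16913446 in treated and 16159905 in control embryos. Scripts ran in Python 3.11.15 with scipy 1.17.1 for the intervals, numpy 2.4.6 and pandas 2.3.3 for tables and matplotlib 3.10.9 for plots.

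The 7 factor genes and the lists were chosen with earlier results of these data known. All 7 genes are named. Of each list, the genes with the 2 highest and the 2 lowest log2 ratios among those that reached the filter are named, and a list of 5 in full. Others were named after their values were seen. Where a symbol has several rows, the row with the largest overall mean was taken. Neighbouring genes were read by name from NCBI RefSeq's gene table for GRCz12tu, another build than the files', so no coordinates are given. Alternatives were pseudocounts of 0 and 10, equal totals, a median ratio of 1, fold thresholds of 1.3 and 2, no filter or an average of 100, and summed rows.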

Additional observations from a re-analysis of the deposited data

How the results depend on the processing

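All 7 factor genes kept their direction under the 5 alternatives of pseudocount, scaling and summed rows. Of 35 values, 28 stayed within the counting interval of the value reported and 7 lay outside it. Each gene has 1 row, so summing rows could not change its value, and the pseudocounts are small beside these means. All values outside the interval came from the scalings. The log2 ratio ran from 1.05 to 1.12 for pou5f3 and from -0.55 to -0.48 for sox19b over all settings. With the group means scaled to equal totals, the median log2 ratio of all genes was -0.06. At a fold threshold of 1.3, 4 factor genes were higher and 1 was lower (sox19b), beside 22.5% higher and 23.4% lower of all genes. At a threshold of 2, only 1 was higher (pou5f3), since nanog and foxh1 lay just under it. Of all genes, 5.78% were higher and 6.51% lower at that threshold. The 7 lists name 92 genes. In the order of their description, 1, 7, 18, 15, 16, 9 and 10 genes of the lists reached an average of 10. Of these genes, 20 were higher and 14 lower past 1.5-fold, beside 13.8% higher and 15.1% lower of all genes. The totals pool lists that differ, from 6 higher and 0 lower for the Nodal targets to 0 higher and 6 lower for the neural ectoderm. At a threshold of 2, 8 genes of the lists were higher and 12 lower, which turns their balance round. With equal totals 16 were higher and 16 lower, beside 11.96% higher and 17.54% lower of all genes. At an average of 100 or more, where fewer genes were counted, 18 genes of the lists were higher and 8 lower. Of all genes at that level, 9.54% were higher and 10.1% lower. Over the alternatives, 144 counts of single lists and shares of all genes were compared with the values reported. Of these, 119 stayed within 1.5 times the reported value and 25 did not. No paired analysis was possible because the values used are means over a group, and for the same reason no replicate could be left out, replicate 4 included. Intervals do not cover the spread between pools.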

Other observations

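In NCBI RefSeq's gene table the 7 factor genes lie on 7 different chromosomes. Of the nearest coding genes on either side of each that reached an average of 10, 14 in all, 0 were higher and 3 lower past 1.5-fold, beside 13.8% higher and 15.1% lower of all genes. Their log2 ratios ran from -0.93 to 0.52, and the neighbours of sox19a and sox2 lay further from 0 than these factor genes. The genes sox19a and sox19b sit in duplicated surroundings, each between a copy of mpdu1 and a copy of eif4a1. Beside sox19a, mpdu1a was at 10.9 in treated and 20.4 in control embryos and eif4a1b at 616 in treated and 428 in control embryos. Beside sox19b, mpdu1b was at 59.7 in treated and 65.3 in control embryos and eif4a1a at 17571 in treated and 17569 in control embryos. There, 2 coding genes overlap a factor gene. The gene fut7, which overlaps pou5f3, was at 2.18 in treated and 0.770 in control embryos, and ipo4, which overlaps nanog, was at 189 in treated and 211 in control embryos.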
